A study of Mus musculus with 6 samples.

Results

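The transcripts described here are those of Zp1, Zp2 and Zp3, the genes of the mouse egg coat, and of Astl, which encodes ovastacin. These 4 genes were chosen by name, with earlier results of these data known, and are 4 of the 24254 gene rows in the deposited table. RNA-seq was done on mouse metaphase II oocytes, that is, eggs ready for fertilization. The eggs of 3 libraries matured in vitro (IVM); those of the 3 others matured in vivo (IVO). The labels give no strain, genotype, age, hormone treatment or culture medium and do not say whether replicates came from separate animals. The p-values therefore reflect the spread among these libraries alone, which may be technical. Values are FPKM, fragments per kilobase of transcript scaled to the library's total. They give a level relative to the library, not an amount per egg. In bulk RNA of this kind, fewer eggs that hold a transcript and less of it in each egg cannot be told apart.

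The zona pellucida is the glycoprotein shell that the growing oocyte secretes around itself. In the mouse it is built from ZP1, ZP2 and ZP3. ZP2 and ZP3 form long filaments, which ZP1 cross-links. Sperm bind the coat at the amino-terminal part of ZP2. At fertilization the egg releases ovastacin, a metalloprotease of the astacin family, from its cortical granules, and ovastacin cuts ZP2 so that no further sperm bind. The coat genes are transcribed while the oocyte grows. A fully grown oocyte makes almost no new RNA, and many of its stored messages are translated, deadenylated or destroyed as meiosis resumes.

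The table placed Zp1 on chromosome 19 at 10914294 to 10920601, Zp2 on chromosome 7 at 120132359 to 120145290, Zp3 on chromosome 5 at 135980103 to 135988624 and Astl on chromosome 2 at 127338637 to 127357656, positions that match GRCm38. No other row of the table overlapped any of the 4. In the GENCODE annotation the main transcript of Zp1 has 12 exons and 1963 bases, that of Zp2 18 exons and 2221 bases, that of Zp3 8 exons and 1323 bases, and that of Astl 9 exons and 2377 bases. The coat messages end very close to their stop codons: the annotated 3′ UTR has 34 bases in Zp1, 49 in Zp2 and 13 in Zp3, but 877 in Astl. Of 7113 tested genes with an annotated 3′ UTR, 0.127% had one as short as that of Zp3 or shorter, 0.562% as short as that of Zp1 and 1.03% as short as that of Zp2, while the median was 1111 bases. The 30 bases around the last poly(A) signal of each message are shown here to place that signal, with AATAAA in capitals, 5′ to 3′ on the coding strand.
Zp1: ttaaatggactcAATAAAccattgtttgaa
Zp2: attggacttgcaAATAAAgagactgcagtt
Zp3: tatcccttccgcAATAAAagaagaaactca
Astl: ggaaaaggtagaAATAAAgttgggtgtttg

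These windows lie at chr19:10914297-10914326 (minus strand), chr7:120132360-120132389 (minus strand), chr5:135988595-135988624 (plus strand) and chr2:127357616-127357645 (plus strand). In Zp3 the stop codon TAA is itself part of the signal, which covers all 3 of its bases. In Zp1 the signal starts 8 bases after the stop codon, in Zp2 11 bases and in Astl 853 bases. All 4 messages thus had AATAAA within their last 40 bases, as did 65.4% of the 7113 genes. The letters TTTTAT and TTTTAAT, elements bound by CPEB proteins that steer cytoplasmic polyadenylation in maturing oocytes, were searched on the message strand and occur 0 times in the 3′ UTR of each of the 4 genes. They occur in the 3′ UTR of 62.8% and 35.9% of the genes, whose median length is 1111 bases. The 13 to 49 bases of the coat genes leave little room for either element, so their absence there says little. No share among genes of like length was taken.

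Estimated depth overlapped between the groups, but the number of genes at an FPKM of 1 or more did not, at 7853 to 8029 in IVM and 7187 to 7327 in IVO. Steps between low FPKM values, each step worth 1 fragment, put the libraries at an estimated 8510000 to 10800000 fragments (IVM) and 8510000 to 9300000 (IVO). Summed FPKM was 353438 to 364983 in IVM and 394233 to 402054 in IVO. All 6 oocyte markers (Gdf9, Bmp15, Nlrp5, Mos, Zar1 and Oosp1) were tested. Of these, 4 were higher in IVM and none lower, against 20.6% and 20.4% of all tested genes, and 2 did not pass. Their median log2 difference was 0.51. Their summed level, most of it Gdf9, was 13533 to 13920 FPKM in IVM and 8928 to 10903 in IVO. Nlrp5 differed about as much as the coat genes, 369 ± 3.28 FPKM against 38.2 ± 9.22 (mean ± SD of 3 libraries, log2 difference 3.26). Bmp15 was at 1869 ± 88.5 in IVM and 521 ± 171 in IVO (1.89). The 13 markers of cumulus and granulosa cells, which surround the egg, summed to 33.3 to 54.1 FPKM in IVM and 27.4 to 57.6 in IVO, so the groups overlapped. Of the 8 that were tested, 2 were higher and 2 lower in IVM, against 20.6% and 20.4% of all tested genes. The higher were Inha (16.9 ± 9.39 against 3.90 ± 2.84 FPKM, mean ± SD of 3 libraries) and Kitl (6.19 ± 0.792 against 3.92 ± 0.460). The lower were Tnfaip6 (0.242 ± 0.419 against 2.76 ± 2.07) and Inhba (0.248 ± 0.221 against 2.18 ± 1.39). The overlap of the sums thus holds differences in both directions. The 6 oviduct markers summed to 1.22 to 14.4 FPKM in IVM and 27.6 to 71.2 in IVO. Most of the IVO sum was Spp1, at 26.7, 67.6 and 31.3 FPKM against 12.2, 1.31 and 0 in IVM, while Pax8 was at 0 in every library and Ovgp1, the oviduct glycoprotein that binds the coat, was at 0.0862 ± 0.0834 in IVM and 0.574 ± 0.446 in IVO (mean ± SD of 3 libraries). The 4 blood and immune markers summed to at most 0.644 FPKM in any library. The part of other cells, or of the number of genes detected, in the results was not tested.

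All 4 transcripts were more abundant in IVM eggs. The mean level in IVM was 38.3 times that in IVO for Zp2, 12.7 times for Zp3, 8.02 times for Zp1 and 4.35 times for Astl; whether these factors differ is taken up with the ratios between members. In limma with Benjamini-Hochberg adjustment over the 7746 genes whose FPKM averaged 1 or more, 4 of 4 were called higher in IVM at an adjusted p under 0.05. Of all tested genes 20.6% were called higher, 20.4% lower and 41.0% in either direction. All 3 IVM libraries lay above all 3 IVO libraries for each of the 4 genes, as they did for 25.8% of tested genes; 53.5% had groups apart in one direction or the other. Ordered by the excess in IVM on the log2(FPKM + 1) scale, Zp3 came 10th, Zp2 13th, Zp1 48th and Astl 138th of the 7746.

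**Figure D1:**
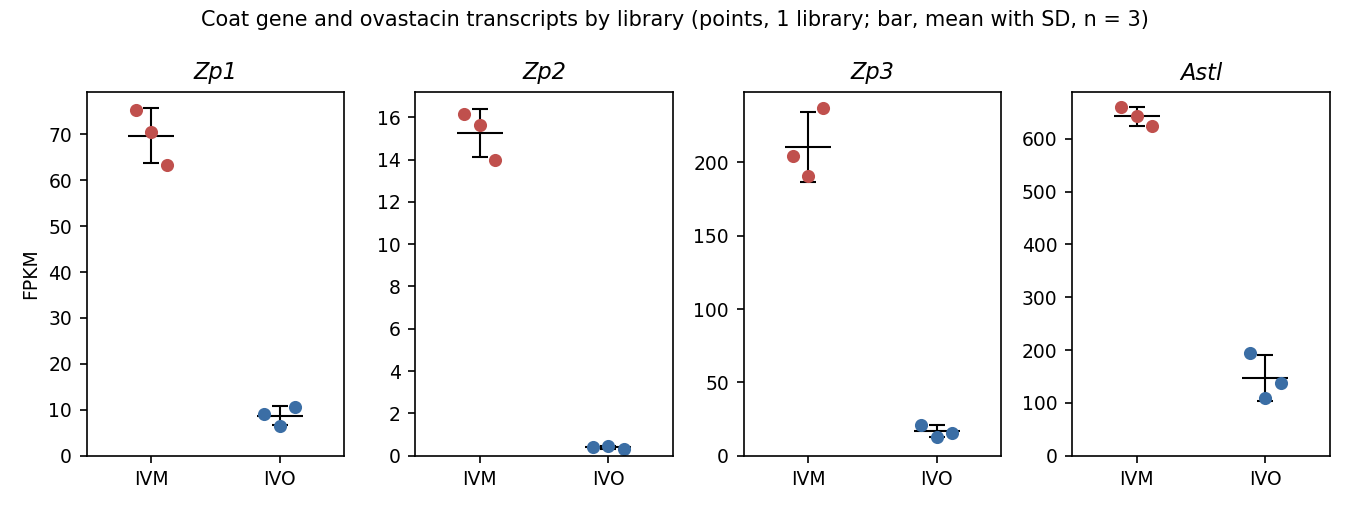
FPKM (vertical axis, from 0, on its own scale in each panel) of Zp1, Zp2, Zp3 and Astl in the 3 IVM and 3 IVO libraries. Each point is 1 library and the bars give the mean and SD (n = 3). Every IVM point lies above every IVO point; Zp2 is close to 0 in all IVO libraries.

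Zp2, which encodes the protein that sperm bind and ovastacin cuts, was the least abundant of the 4 and had the largest ratio of mean FPKM, though not the largest difference on the log2(FPKM + 1) scale, where Zp3 was ahead. In replicate order, the IVM libraries held 16.1, 15.6 and 14.0 FPKM and the IVO libraries 0.431, 0.447 and 0.316. The groups did not overlap, and the lowest IVM library held 31.3 times the level of the highest IVO library. The log2 difference on the log2(FPKM + 1) scale was 3.54 (SE 0.163; limma, Benjamini-Hochberg adjusted p = 3.97e-06). In IVM these values rest on an estimated 264 to 388 fragments per library, but in IVO on an estimated 8.15, 9.23 and 5.98. At such a depth the IVO level is known only roughly, and the added 1 exceeds it: adding 0.1 in place of 1 gave a log2 difference of 4.95 and adding 0.01 gave 5.24.

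Zp3, which encodes the filament partner of ZP2, was the most abundant coat message in every library. Its FPKM was 204, 191 and 237 in IVM and 21.1, 13.0 and 15.6 in IVO. IVM replicate 3 was the highest, and even the lowest IVM library was 9.05 times the highest IVO library. The log2 difference was 3.61 (SE 0.165; limma, Benjamini-Hochberg adjusted p = 3.97e-06). An estimated 2460 to 2920 fragments per library stand behind the IVM values and 160 to 237 behind those of IVO.

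Zp1, which encodes the cross-linking protein, stood between the others. Its FPKM was 75.4, 70.4 and 63.4 in IVM and 9.02, 6.46 and 10.6 in IVO. The lowest IVM library was 5.97 times the highest IVO library, which was replicate 3. The log2 difference was 2.89 (SE 0.167; limma, Benjamini-Hochberg adjusted p = 9.04e-06), on an estimated 1060 to 1600 fragments in IVM and 118 to 177 in IVO.

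Astl was the most abundant of the 4 and had the smallest factor. Its FPKM was 660, 643 and 623 in IVM and 195, 110 and 138 in IVO. The coefficient of variation was 2.88% in IVM and 29.6% in IVO, where replicate 1 was the highest. The lowest IVM library was 3.19 times the highest IVO library, and the log2 difference was 2.15 (SE 0.175; limma, Benjamini-Hochberg adjusted p = 5.03e-05).

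For all 4 genes the IVO libraries varied more in proportion than the IVM libraries, with coefficients of variation of 17.9% to 29.6% against 2.88% to 11.3%. This was not particular to them. Over all tested genes the IVO libraries also agreed less with each other, at Pearson r of 0.973 to 0.980 against 0.983 to 0.990. In the authors' deposited table each gene had a p-value of 5e-05 and a q-value of 0.000248 for IVM against IVO; at a q under 0.05, 21.7% of the tested genes were higher in IVM and 44.7% differed either way.

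**Figure D2:**
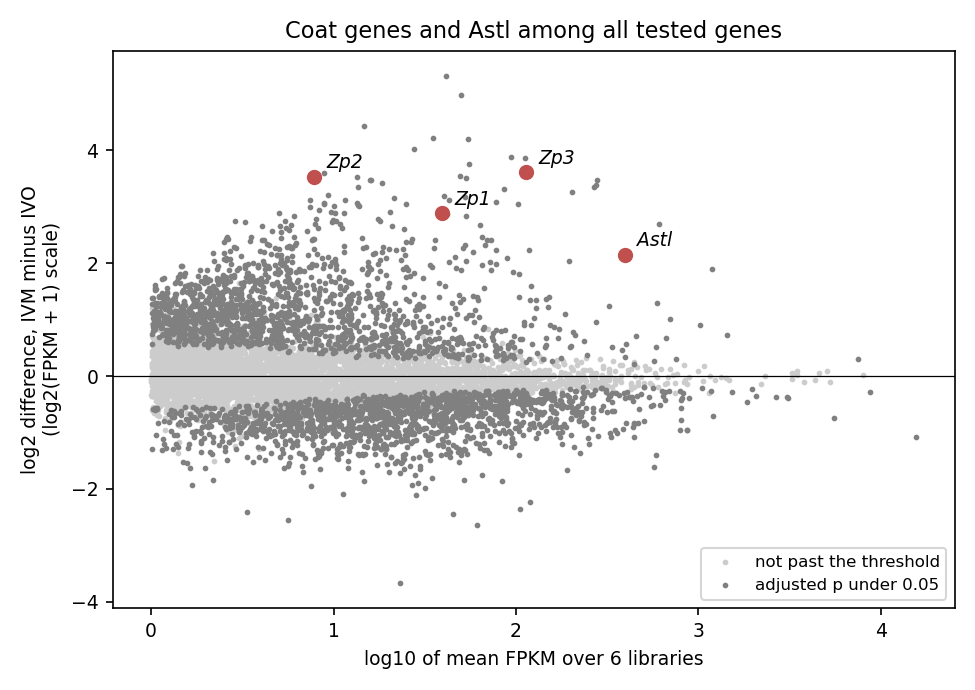
Log2 difference (IVM minus IVO, on the log2(FPKM + 1) scale) of each of 7746 tested genes against log10 of its mean FPKM over 6 libraries. Dark points passed an adjusted p under 0.05 and the 4 red points are Zp1, Zp2, Zp3 and Astl, at 2.89, 3.54, 3.61 and 2.15.

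The place of each message within its own library, which does not depend on scaling between libraries, moved in the same direction. Astl ranked 63 to 66 by FPKM in the IVM libraries and 340, 628 and 488 in IVO replicates 1, 2 and 3. Zp3 ranked 227 to 304 in IVM and 2219 to 2851 in IVO, and Zp1 831 to 936 in IVM and 3162 to 3879 in IVO. Zp2 fell within the top 17.8% to 21.3% of genes above 0 in IVM but only within the top 69.7% to 77.9% in IVO. Under 3 other scalings between libraries the median log2 difference of all tested genes went from -0.0191 to between -0.131 and 0.0971, and the share of higher among called genes from 50.2% to 62.5% after rescaling libraries to an equal sum and to 39.6% with upper quartile scaling. It was 37.5% over genes averaging 5 FPKM or more. The log2 differences of the 4 genes stayed at 2.02 to 2.30 for Astl, 2.77 to 3.02 for Zp1, 3.45 to 3.63 for Zp2 and 3.49 to 3.75 for Zp3 under these scalings.

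Since FPKM is per length, the coat messages can also be set against each other within a library. The 3 together had 277 to 314 FPKM in IVM and 19.9 to 30.5 in IVO. Zp3 supplied 71.1 ± 3.70% of this sum in IVM and 64.4 ± 5.17% in IVO, Zp1 20.2% to 25.5% in IVM and at least 29.6% in IVO, and Zp2 5.19 ± 0.650% and 1.62 ± 0.555% (SD, n = 3). The order Zp3, Zp1, Zp2 was thus the same in all 6 libraries, and the groups did not overlap for the shares of Zp1 and Zp2, while for Zp3 they did. In the IVM libraries Zp1 stood at a nearly fixed ratio to Zp2, 4.67, 4.50 and 4.54. In IVO the same ratio was 20.9, 14.5 and 33.5, where few Zp2 fragments were seen.

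**Figure D3:**
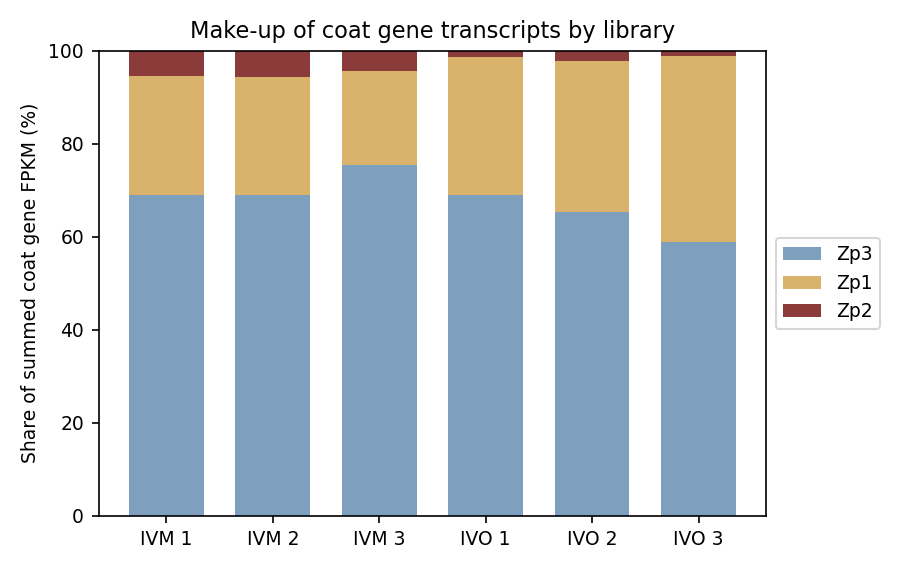
Share of the summed FPKM of Zp1, Zp2 and Zp3 held by each gene, in percent, 1 stacked bar per library. Zp2 holds 4.44% to 5.66% in IVM and 1.19% to 2.25% in IVO, and Zp1 holds 20.2% to 25.5% in IVM and at least 29.6% in IVO.

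Whether the difference between groups varied in size among the 4 messages was tested on the 6 log2 ratios between members. Each had 1 added to both values. An exact two-sided permutation test over libraries was used, with Benjamini-Hochberg adjustment over the 6; with 3 libraries against 3 its smallest p is 0.1. Relative to Astl, Zp3 was higher in IVM by 1.46 on the log2 scale, from -3.07 ± 0.0854 in IVO to -1.61 ± 0.191 in IVM (SD, n = 3), Zp2 by 1.38 and Zp1 by 0.73. Zp3 and Zp2 were higher relative to Zp1 by 0.72 and 0.65. In each of these 5 ratios the groups did not overlap, and each gave exact p = 0.1 and adjusted p = 0.12, so none can pass a threshold of 0.05 in this design. Of single tested genes, 53.5% also had groups apart. The share among ratios of other gene pairs was not taken, so the count of 5 is a description only. The ratio of Zp2 to Zp3 differed by -0.0739 (exact p = 0.9), but with 0.1 added it differed by 1.27 the other way (exact p = 0.1). The added 1 exceeds the IVO level of Zp2, so the size of each Zp2 ratio depends on it. With 0.1 added, Zp2 was higher in IVM by 1.94 relative to Zp1 and by 2.79 relative to Astl. For Zp3 the same values were 0.67 and 1.52. Without any added value Zp3 was 12.2 to 17.0 times as abundant as Zp2 in IVM and 29.1 to 49.3 times in IVO.

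Other genes with very short 3′ UTRs were set beside the coat genes. In the 70 tested ones with at most 49 bases the log2 difference had a median of 0.12; over all 7113 genes with an annotated 3′ UTR it was -0.0236. Of these, 15 of the 70 (21.4%) were called higher and 7 (10.0%) lower, against 20.8% and 20.8%. Astl, with a far longer 3′ UTR, was also higher in IVM. The part of 3′ UTR length in the difference between groups was not tested.

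**Figure D4:**
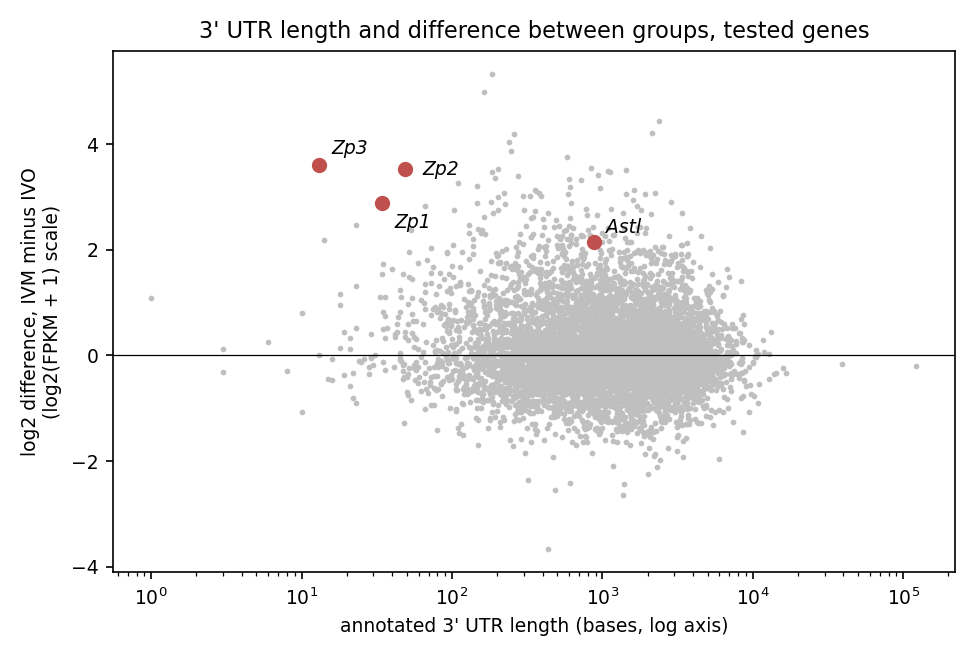
Log2 difference (IVM minus IVO, log2(FPKM + 1) scale) of 7113 tested genes against the length of the annotated 3′ UTR in bases on a log axis. Zp3, Zp1 and Zp2 lie at 13, 34 and 49 bases and Astl at 877; the 70 other genes with at most 49 bases have a median of 0.12.

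The genes beside the 4 members on their chromosomes were also measured. The nearest tested genes on each side were Prpf19 and Ms4a1 for Zp1, Dcun1d3 and Anks4b for Zp2, Ssc4d and Dtx2 for Zp3, and Stard7 and Mrps5 for Astl, at distances of 4.74 to 276 kb. None of these 8 passed in limma, where 41.0% of all tested genes did, with log2 differences of -0.49 to 0.35 and Benjamini-Hochberg adjusted p-values of 0.145 to 0.962. Dtx2, 6.17 kb from Zp3, had 516 ± 0.602 FPKM (IVM) and 566 ± 30.7 (IVO; SD, n = 3), and Stard7, 39.7 kb from Astl, at 145 ± 6.58 and 145 ± 8.58. Prpf19, 4.74 kb from Zp1, was called lower without IVO replicate 2 (log2 difference -0.73, limma, adjusted p = 0.0319) and under quantile normalization (-0.725, adjusted p = 0.0462), and Dtx2 with upper quartile scaling (-0.26, adjusted p = 0.0251).

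Transcription of the coat genes in the growing mouse oocyte depends on FIGLA, a basic helix-loop-helix protein that binds E-boxes, CANNTG, with a partner such as the product of Tcf3. RefSeq promoter entries (GRCm38.p6) were found for 2 of the 4 genes, Zp3 with 1 start and Astl with 2. The 250 bases before each start are shown to place the E-boxes, with each CANNTG in capitals. The motif reads the same on both strands. Its part in the difference between groups was not tested.
Zp3 (chr5:135979855-135980104, plus strand): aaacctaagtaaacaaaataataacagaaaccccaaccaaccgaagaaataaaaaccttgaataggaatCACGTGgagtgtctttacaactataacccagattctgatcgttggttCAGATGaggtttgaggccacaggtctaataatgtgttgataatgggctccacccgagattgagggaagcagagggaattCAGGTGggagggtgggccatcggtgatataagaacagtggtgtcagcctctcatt
Astl, upstream start (chr2:127338389-127338638, plus strand): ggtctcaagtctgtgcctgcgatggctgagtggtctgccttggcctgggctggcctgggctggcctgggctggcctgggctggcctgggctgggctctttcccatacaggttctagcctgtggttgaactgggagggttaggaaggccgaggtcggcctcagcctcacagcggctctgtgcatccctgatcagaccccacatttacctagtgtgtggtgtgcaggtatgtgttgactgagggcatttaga
Astl, downstream start (chr2:127341386-127341635, plus strand): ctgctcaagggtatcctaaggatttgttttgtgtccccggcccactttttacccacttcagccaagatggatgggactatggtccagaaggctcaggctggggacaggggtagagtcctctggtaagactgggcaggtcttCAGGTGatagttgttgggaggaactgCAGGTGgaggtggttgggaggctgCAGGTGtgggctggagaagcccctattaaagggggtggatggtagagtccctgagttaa

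Zp3 had 3 such matches, starting 181, 134 and 55 bases before its start, and the downstream start of Astl had 3, starting 109, 83 and 59 bases before it, while the upstream start of Astl had 0. The motif is common: 66.2% of 32851 promoter entries hold at least 1 match in this window and 12.2% hold 3 or more. The form CAGGTG, or CACCTG on the other strand, is held by 17.2%, and CACGTG, found in Zp3 only, by 6.02%. The letters TATAA, searched on both strands and held by 22.8%, lie 29 bases before the start of Zp3, and once more at 160.

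Genes that act with the coat and with ovastacin were followed in 5 lists of 55 genes, of which 31 were tested. Of these, 9 were higher and 1 lower in IVM, or 10 of 31 against 41.0% of all tested genes, and their median log2 difference was 0.0932 against -0.0191 for all tested genes. The other 21 tested genes did not pass the threshold. For the counts of each list below, the shares over all tested genes were 20.6% higher and 20.4% lower.

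Among 7 tested transcription factors of the growing oocyte 2 were higher and 1 was lower, while 4 did not pass, with a median log2 difference of -0.37. Lhx8, a LIM homeobox gene needed for early follicles, was at 8.37, 8.12 and 10.5 FPKM in IVM and 2.92, 2.36 and 1.79 in IVO (limma, Benjamini-Hochberg adjusted p = 0.000292). Nobox, another oocyte homeobox gene, was at 12.6, 15.7 and 23.8 in IVM and 2.94, 6.19 and 7.26 in IVO (adjusted p = 0.00405). Figla itself was too low to be tested, at 0.462, 0.869 and 0.584 FPKM in IVM, and it is listed at 0 in all 3 IVO libraries. Tcf3, which encodes E proteins that pair with FIGLA, was lower in IVM, 14.6 ± 1.20 against 21.0 ± 3.00 (SD, n = 3; limma, adjusted p = 0.0195). Its call was lost without IVM replicate 1, IVM replicate 3 or IVO replicate 1 (adjusted p = 0.0667, 0.0687 and 0.0543), and after rescaling libraries to an equal sum (0.0599).

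Among 9 tested genes for the processing and glycosylation of coat proteins 3 were higher, none was lower and 6 did not pass, with a median of 0.32. C1galt1c1, the chaperone of the enzyme that extends O-glycans, was at 26.4, 26.4 and 27.4 FPKM in IVM and 13.4, 9.52 and 9.54 in IVO (limma, Benjamini-Hochberg adjusted p = 0.000279). B3gnt2, which builds poly-N-acetyllactosamine chains, was at 132 ± 2.09 and 83.9 ± 16.8 (SD, n = 3; limma, adjusted p = 0.00477). Mgat1, the first enzyme of complex N-glycans, was at 33.7 ± 2.58 and 25.2 ± 3.91 (SD, n = 3; limma, adjusted p = 0.0327). The call of Mgat1 was lost without IVM replicate 1, 2 or 3 (adjusted p = 0.0707, 0.0703 and 0.114), without IVO replicate 1 or 2 (0.0865 and 0.0859) with upper quartile scaling (0.0931), without a filter (0.0636) and without the intensity trend (0.0598). Furin, the gene of a protease that cuts at sites of the kind found in coat protein precursors, was abundant in both groups, at 362 ± 13.2 and 339 ± 19.5 FPKM (mean ± SD of 3 libraries), and did not pass (limma, adjusted p = 0.342), but it was called higher after rescaling libraries to an equal sum (0.0216) and under quantile normalization (0.0155).

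Among 10 tested genes of cortical granule traffic and exocytosis 2 were higher and 8 did not pass, with a median of -0.0371. Both are parts of the machinery that takes SNARE complexes apart. Nsf, the ATPase, was at 7.90, 8.01 and 11.4 FPKM in IVM and 1.09, 1.34 and 1.33 in IVO (limma, Benjamini-Hochberg adjusted p = 7.39e-05), and its adaptor Napa at 2.77, 2.09 and 3.04 and 0.609, 0.654 and 0.546 (adjusted p = 0.00152). Rab11a, Snap23 and Rab27a, with roles in vesicle transport and fusion, did not pass.

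Of the relatives by domain, 3 of 11 other genes with a ZP domain were tested and 1 was higher. Umodl1 was at 7.69, 12.6 and 16.2 FPKM in IVM and 2.23, 2.32 and 3.94 in IVO (limma, Benjamini-Hochberg adjusted p = 0.0012), and Tgfbr3, the most abundant of them, at 36.8 ± 1.13 and 30.8 ± 3.47 (SD, n = 3; adjusted p = 0.0992). Of the other astacin proteases only Tll1 was tested, and it did not pass. Fetub encodes fetuin-B, a plasma protein made mainly by the liver that blocks ovastacin. Its message was at 14.2, 19.7 and 13.2 FPKM in IVM and 3.70, 1.93 and 4.66 in IVO, groups that did not overlap, with a log2 difference of 1.95 (SE 0.258; limma, Benjamini-Hochberg adjusted p = 0.000489). Protease and inhibitor messages were thus both higher in IVM.

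**Figure D5:**
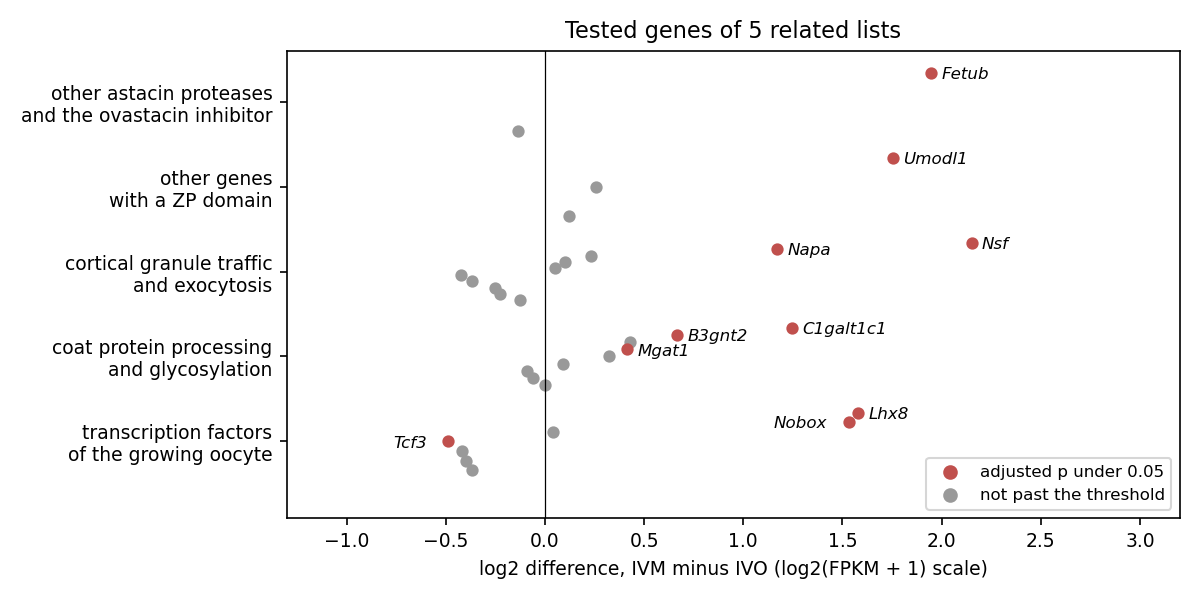
Log2 difference (IVM minus IVO, log2(FPKM + 1) scale) of the 31 tested genes of 5 lists, 1 point per gene and 1 row per list. Red points passed an adjusted p under 0.05 and are named; 9 lie to the right of 0 and Tcf3 to the left.

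The genes whose profile over the 6 libraries was most like that of each member were sought among 4504 other genes averaging 5 FPKM or more, by the root mean square distance between centred log2(FPKM + 1) values. Nearest to Zp1 were Tmem169, Padi6 and Gm12338 (distances 0.123, 0.146 and 0.146), nearest to Zp2 were Hspa5, Rpl41 and Nlrp14 (0.128, 0.129 and 0.189), and nearest to Zp3 were Mis18a, Nlrp14 and Tubb2a (0.117, 0.149 and 0.177). Nearest to Astl were Tuba1b, Socs7 and Leprot (0.0991, 0.108 and 0.113). Padi6, an egg gene of the cytoplasmic lattices, had 141 ± 8.12 FPKM (IVM) and 15.9 ± 3.60 (IVO), and Nlrp14, an oocyte NLR gene, 514 ± 23.4 and 46.1 ± 10.7 (SD, n = 3). On this scale Zp2 and Zp3 were 0.247 apart, Zp1 0.395 and 0.434 from them, and Astl 0.423 to 0.739 from all 3. The genes named above were picked as the nearest of 4504, so members not among them could only lie farther off. By rank, Zp3 was the 6th nearest gene to Zp2, and Zp2 the 8th nearest to Zp3. The nearest member ranked 48th for Zp1 (Zp2) and 154th for Astl (Zp1). With 2 groups of 3, such a distance mostly reflects the size of the difference between groups. The likest genes of Zp2 also depend on the added value, which exceeds its IVO level: with 0.1 in place of 1 they were Tmsb10, Cst3 and Tsc22d4 (0.354, 0.521 and 0.527), and none of the former 3 remained. Of the 3 likest genes, 3 remained for Zp1, 2 for Zp3 and 2 for Astl.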

How the data were processed

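RNA-seq of 6 libraries of mouse metaphase II eggs, 3 IVM and 3 IVO by the labels, was read from 1 table. It holds, per the file headers, the authors' FPKM for each gene and library beside p-values and q-values from their own tests; a column of log2 ratios damaged by a spreadsheet was not used. The sources used here do not name the aligner, counting tool or annotation. The submitters' processing notes name mm9, but 99.3% of 23104 symbols shared with GENCODE M21 overlapped their GRCm38 gene. Of 24254 rows, 7775 were at 0 throughout and 27 had a date for a symbol.

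The test was that of limma 3.58.1 (R 4.3.3), two-sided and with an intensity trend, applied to log2(FPKM + 1) of 7746 genes averaging at least 1 FPKM, with Benjamini-Hochberg adjustment and a threshold of 0.05; log2 differences on this scale understate the change of low genes. The procedure was tested on simulated data. No count test was run, since FPKM are not counts. Fragment numbers were estimated from the FPKM step worth 1 fragment in genes with 1 annotated transcript and the length of each main transcript, so they are approximate. Members and lists were chosen with earlier results of these data known. Named genes were the members, up to 4 called genes of each list by size (or the smallest p where none passed), the 3 likest profiles and the nearest tested neighbours; Figla, Furin, Tgfbr3, Tll1, Rab11a, Snap23, Rab27a and sequence features were added after values were seen. The profile comparison with 0.1 added was chosen after seeing the data. Alternatives covered the pseudocount, filter, scaling, variance model, weights of libraries, leaving out each library, a block on replicate number, the threshold and the authors' q-values.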

Additional observations from a re-analysis of the deposited data

How the results depend on the processing

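Under all 18 alternatives Zp1, Zp2, Zp3 and Astl stayed higher in IVM and past the threshold, with a largest adjusted p of 0.000884 (limma, Astl). Their log2 differences ranged over 2.71 to 3.03, 3.45 to 5.26, 3.46 to 3.79 and 1.96 to 2.37; the top of the range of Zp2 is the ratio of mean FPKM without an added value. Leaving out 1 library gave 2.71 to 3.03 for Zp1, 3.50 to 3.60 for Zp2, 3.46 to 3.79 for Zp3 and 1.96 to 2.37 for Astl. The number of genes called, 3178, was 2028 at an adjusted p under 0.01 and 2382 to 3251 with 1 library left out. List members called numbered 8 to 14, against 10. The log2 ratio of Zp2 to Zp3, -0.0739, became 1.27 with a pseudocount of 0.1 and ranged over -0.23 to 0.10 with 1 library left out, turning positive without IVM replicate 3 (0.0720) or IVO replicate 2 (0.10). The other 5 ratios kept their direction. With a pseudocount of 0.1, however, Zp2 over Zp1 went from 0.65 to 1.94 and Zp2 over Astl from 1.38 to 2.79. Furin went from 0.0932 to -0.0364 with upper quartile scaling. The causes of these shifts were not tested. Of the 8 nearest genes, a result chosen after seeing the data, 1 was called under each of 3 alternatives.

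Replicate numbers are shared by the groups, but no label says that they mark a shared animal or day. Same-numbered libraries deviated together only weakly (Pearson r of 0.0777, 0.0599 and 0.0900 over tested genes), although every library correlated best with its own number. With the replicate block 3184 genes were called and the log2 differences of the 4 genes were unchanged in direction and call.

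The depth of IVO, an estimated 5.98 to 9.23 Zp2 fragments per library, limits how well the factor for Zp2 is known.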
